A study of Mus musculus with 6 samples.

Results

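CFTR is the chloride channel and ENaC the sodium channel of the surface of many epithelia, and 7 genes of this system were followed in the mouse uterus, chosen by name, with no threshold on their values but with earlier results of these data known. They were Cftr, the ENaC subunit genes Scnn1a, Scnn1b and Scnn1g, the kinase gene Sgk1, the ubiquitin ligase gene Nedd4l and the protease gene Prss8. All 7 had probes on the array, 9 of the 55681 probes that were not controls, and they are 7 of the 20145 genes to which probes were matched. Nedd4l and Prss8 had 2 probes each and the other genes 1 each. RNA from whole uteri was hybridized to Agilent arrays of 1 colour, with 3 Sox17 f/f and 3 Sox17 ed/ed samples, 1 to an array. The comparison asks how mRNA of the uterus before implantation differs when the transcription factor SOX17 is lost from the epithelium.

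All females were pregnant by natural mating, were mated at 8 to 10 weeks of age and were taken at gestation day (GD) 3.5, and their uteri were frozen once the embryos were out. Both genotypes carried floxed Sox17 alleles. Sox17 f/f mice, labelled WT by the submitters, had no recombinase, and Sox17 ed/ed mice were LtfiCre/+ Sox17 f/f, in which iCre made from the lactoferrin (Ltf) locus removes Sox17 from epithelial cells of the uterus, starting at puberty. By design, stroma, muscle and vessels kept their Sox17 alleles, the recombinase itself was present in 1 genotype only, and the deletion had been in place before the pregnancy began. The samples are numbered replicates in the labels. Nothing in the labels says outright that each came from a separate female, so p-values measure the spread between these samples.

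In the uterus CFTR and ENaC act against each other on the volume of the luminal fluid: CFTR lets chloride out, and water follows, whereas ENaC takes sodium up and water goes with it. ENaC is built from an alpha, a beta and a gamma subunit, encoded by Scnn1a, Scnn1b and Scnn1g. The ligase NEDD4L tags the channel for removal from the membrane, the serum and glucocorticoid regulated kinase SGK1 phosphorylates NEDD4L and so keeps ENaC at the surface, and membrane-bound proteases, among them prostasin (the Prss8 product), raise channel activity by cutting its subunits. Uptake of fluid through ENaC is known to close the lumen around the blastocyst before attachment. mRNA alone was measured here, and channel protein and fluid were not.

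Sgk1 is a textbook target of the glucocorticoid and mineralocorticoid receptors, and the bases before 1 of its start sites are shown because they hold the full palindrome these receptors bind. RefSeq promoter windows (GRCm38.p6, 250 bases before and 50 after a start site) were found for Cftr, Scnn1b and Scnn1g, with 1 each, and for Sgk1, with 6. The sequence shown is chr10:21993640-21993889 on the + strand, the bases just before the start site at 21993890, with the palindrome in capitals.
Sgk1: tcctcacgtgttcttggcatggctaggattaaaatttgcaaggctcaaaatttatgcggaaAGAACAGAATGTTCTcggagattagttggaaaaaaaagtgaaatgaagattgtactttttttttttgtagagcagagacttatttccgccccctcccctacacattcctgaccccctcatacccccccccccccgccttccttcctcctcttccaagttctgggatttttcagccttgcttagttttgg
The capitals match the glucocorticoid response element searched, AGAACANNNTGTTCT, where N is any base, on either strand. The match is 15 bases long and begins 189 bases before the start site. It was found in 3 of the 32851 windows of 27025 genes, which is 0.00913%, and the other holders were Acnat2 and Gm35041. The half-site AGAACA, which also lies within the palindrome, was in 19% of windows and, among the genes followed, in 3 of the 6 windows of Sgk1. The core that SOX factors bind, ACAAT, was in 31.0% of windows and also in 3 of the 6 windows of Sgk1. The estrogen response element GGTCANNNTGACC was in 0.07% of windows and in none of those of the genes followed. None of these motifs was found in the windows of Cftr, Scnn1b or Scnn1g. These are matches of letters in a reference sequence. These arrays do not measure binding, and the study's separate map of SOX17 binding in the uterus was not used here. Which start site of Sgk1 was in use was not analysed here.

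Sox17 itself, the deleted gene, fell from a normalized log2 signal of 12.17 ± 0.09 (SD, n = 3) in Sox17 f/f to 9.72 ± 0.11 (n = 3) in Sox17 ed/ed, a log2 fold change of -2.45 ± 0.09 (SE, limma adjusted p = 2.56e-05). Between 56.8% and 65.7% of spots other than controls were well above background on an array, the share being lower on all 3 Sox17 ed/ed arrays, and saturation was marked on 0 spots. One slide held every array, each genotype in its own line, so place on the slide and genotype cannot be told apart. Correlations between arrays were 0.990 to 0.995 within Sox17 f/f, 0.992 within Sox17 ed/ed and 0.965 to 0.967 between genotypes. No array stood apart from its genotype. A gene was called changed at an unadjusted limma p under 0.01 with a fold change of at least 1.4 in either direction, the thresholds named in the study's methods, and adjusted p values are Benjamini-Hochberg values over all 14790 genes tested.

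Markers of the tissue were present. All 8 uterine epithelial markers listed were tested, among them Epcam, Krt8 and Krt18, as were all 7 stromal, all 5 smooth muscle and all 5 endothelial markers. Of the epithelial markers 5 rose, among them Cdh1, Krt8, Krt7 and Krt19 with log2 fold changes of 0.59 to 2.10, and 0 fell, while Epcam differed by 0.10 and Krt18 by -0.16. The summed linear signal of the epithelial list was 35776 to 38188 in Sox17 f/f and 46397 to 57926 in Sox17 ed/ed, and that of the smooth muscle list 405475 to 443954 and 302639 to 368577. All 5 endothelial markers had lower means in Sox17 ed/ed (log2 fold changes of -0.43 to -0.29), 4 of them at an adjusted p under 0.05, and their sum was 7065 to 7233 in Sox17 f/f against 5373 to 5584 in Sox17 ed/ed. No stromal, muscle, endothelial, leukocyte, neutrophil or erythrocyte marker passed both the fold and the p threshold. The stromal gene Dcn (-0.42), the smooth muscle gene Cnn1 (-0.48) and the macrophage gene Csf1r (0.41) also had an adjusted p under 0.05. The erythrocyte gene Alas2 (-1.03) was past the fold threshold of 1.4 but not the p threshold (limma adjusted p = 0.0731). Of the 5 oviduct and ciliated cell markers 3 fell, Ovgp1 (-2.92), Dnah5 (-2.82) and Pax8 (-0.91), and 1 rose, Foxj1 (2.44), while Tekt1 (-0.14) was not called. The sum of the 5 was 2427 to 3930 in Sox17 f/f against 1012 to 1067 in Sox17 ed/ed. Ovgp1 and Pax8, with the highest means in Sox17 f/f (10.74 and 10.09), weigh most in that sum. Of the stratified squamous markers tested, only Krt5 was called, as higher (limma adjusted p = 0.0443). It was well above background on 0 Sox17 f/f and 3 Sox17 ed/ed arrays, with a log2 fold change of at least 2.39. Krt14 (0.30), Krt13 (0.06) and Trp63 (-0.12) were not called. In whole uterus, fewer cells of a type and less RNA per cell cannot be told apart, and the part these shifts have in the results below was not tested.

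Of the 7 genes, 6 had a probe that passed the filter on dim signal and were tested. Sgk1, Scnn1a and Scnn1b rose in Sox17 ed/ed, 0 fell, and Nedd4l, Prss8 and Cftr did not pass the thresholds, whereas the Scnn1g probe stayed near background on all 6 arrays. Over all genes 12.5% were called, 6.02% as higher and 6.48% as lower. At an adjusted p under 0.05 the same 3 genes passed, again all higher, against 19% of all genes, 8.82% as higher and 10.1% as lower. The signals of the genotypes did not overlap for 5 of the 6 genes, against 40.5% of all genes. The median log2 fold change of the 6 genes was 0.48, and that of all genes tested was -0.00191.

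**Figure D1:**
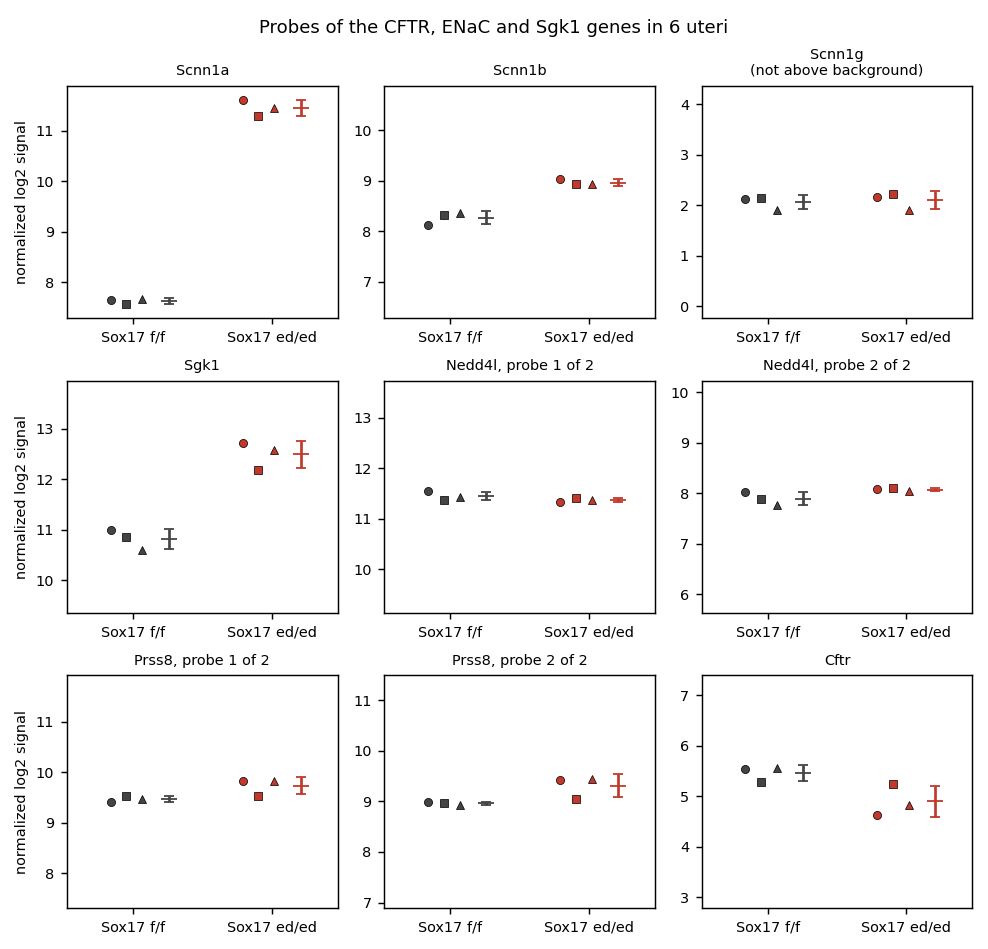
Normalized log2 signal (vertical axis, each panel spanning the same number of log2 units) of the 9 probes on the 6 arrays, 3 Sox17 f/f in grey and 3 Sox17 ed/ed in red; circles, squares and triangles are replicates 1, 2 and 3, and the horizontal bar with whiskers is the mean ± SD. Scnn1a runs from 7.56 to 7.68 in Sox17 f/f and from 11.28 to 11.62 in Sox17 ed/ed, and the Scnn1g probe is well above background on 0 arrays.

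Sgk1, the kinase that links steroid hormones to ENaC, was higher in every Sox17 ed/ed uterus. Its normalized log2 signal was 10.99, 10.85 and 10.60 in Sox17 f/f replicates 1, 2 and 3 and 12.71, 12.19 and 12.58 in Sox17 ed/ed replicates 1, 2 and 3. The lowest Sox17 ed/ed value lay above the highest Sox17 f/f value by more than the spread within either genotype. The means were 10.81 ± 0.20 and 12.49 ± 0.27 (SD, n = 3 each), and the log2 fold change was 1.68 (95% interval 1.28 to 2.08), a fold change of 3.21 (2.43 to 4.24; limma adjusted p = 0.00122). Among the 7348 genes with a positive log2 fold change, Sgk1 was at place 225.

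The receptors and kinases around SGK1 did not move together. Of 19 genes listed for hormone and kinase input to ENaC 18 were tested, of which 3 rose, 1 fell and 14 did not pass the thresholds. Their median log2 fold change was 0.05, and 22.2% were called, against 12.5% of all genes. This list and those below were chosen with earlier results of these data known. The mRNAs of both receptors were short of the thresholds: the glucocorticoid receptor gene Nr3c1 had a log2 fold change of 0.11 (95% interval -0.04 to 0.25, adjusted p = 0.273), and the mineralocorticoid receptor gene Nr3c2, a dim probe, one of 0.21 (-0.50 to 0.93, adjusted p = 0.660). Per1, a clock gene that glucocorticoids are known to induce, had a log2 fold change of -0.34 (adjusted p = 0.0677), also short of the thresholds, with the Sox17 ed/ed arrays all below the Sox17 f/f arrays. The genes that rose were Fkbp5, Tsc22d3 and Hsd11b2. Fkbp5, a receptor chaperone that is itself induced by glucocorticoids, went from 10.31, 10.43 and 10.09 to 10.98, 10.96 and 11.20, a log2 fold change of 0.77 ± 0.12 (SE, adjusted p = 0.00669). Tsc22d3, which encodes the glucocorticoid-induced leucine zipper, went from 12.43, 12.61 and 12.62 to 13.16, 13.17 and 13.19, a log2 fold change of 0.62 ± 0.07 (adjusted p = 0.00282).

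Both genes lay apart between genotypes, with every Sox17 ed/ed array above every Sox17 f/f array. Hsd11b2, whose product inactivates glucocorticoids and so leaves the mineralocorticoid receptor to aldosterone, was called with a log2 fold change of 0.49 ± 0.11 (adjusted p = 0.0301). It lies just past the fold threshold, and its call was lost with a shift by the 75th percentile in place of quantile normalization (0.48), with normexp (0.44), with the deposited processed values (0.48) and without any of 4 arrays (0.39 to 0.49), these being Sox17 f/f replicates 1 and 3 and Sox17 ed/ed replicates 2 and 3. Ndrg1, whose product is a well-known substrate of SGK1, fell from 12.98, 13.00 and 12.89 to 12.32, 12.32 and 12.15, a log2 fold change of -0.70 ± 0.08 (adjusted p = 0.00193). The kinase gene Wnk4 had a log2 fold change of 0.47 and an adjusted p of 0.0176, short of the fold threshold. The SGK1 relative Sgk2 was too dim to test.

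Nedd4l, which takes ENaC off the surface, showed no change past the thresholds with either probe. The probe with the higher mean signal read 11.55, 11.38 and 11.43 in Sox17 f/f and 11.33, 11.41 and 11.37 in Sox17 ed/ed. These values overlap. The log2 fold change was -0.08 (95% interval -0.25 to 0.09, limma adjusted p = 0.479), so a rise above 0.09 or a fall beyond 0.25 on the log2 scale lay outside the interval. The dimmer probe went from 7.89 ± 0.13 to 8.07 ± 0.03 (SD, n = 3 each), a log2 fold change of 0.18 (-0.02 to 0.39, limma adjusted p over all probes = 0.201), and its genotypes did not overlap. The probes differ in sign, and neither interval reached the fold threshold.

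Other ligases and trafficking genes were listed too. Of 15 listed genes 14 were tested, of which 1 rose, 0 fell and 13 did not pass. Their median log2 fold change was -0.01, and 7.14% were called, against 12.5% of all genes. The gene called was Sfn, which encodes the adaptor 14-3-3 sigma and is not itself a ligase, with 6.40, 6.67 and 6.62 in Sox17 f/f and 7.27, 7.12 and 7.15 in Sox17 ed/ed, a log2 fold change of 0.62 ± 0.09 (SE, adjusted p = 0.00672). With normexp background correction it was 0.32 and not called. The closest relative of Nedd4l, Nedd4, had a log2 fold change of 0.21 (adjusted p = 0.0807), and Usp2, a deubiquitinase known to act on ENaC, one of -0.40 (adjusted p = 0.0671).

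The ENaC subunits differed widely in how their mRNA changed. Scnn1a, the alpha subunit, read 7.64, 7.56 and 7.68 in Sox17 f/f and 11.62, 11.28 and 11.45 in Sox17 ed/ed. In processed signal, on the linear scale before normalization between arrays, that is 190.6 to 217 against 2310 to 3094, and the genotypes lie far apart. The log2 fold change was 3.82 (95% interval 3.58 to 4.06), a fold change of 14.2 (11.99 to 16.7; limma adjusted p = 1.08e-05). Scnn1a was at place 48 among the 7348 genes with a positive log2 fold change and at place 97 of all 14790 genes by size of change.

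Scnn1b, the beta subunit, rose less. Its values were 8.13, 8.32 and 8.37 in Sox17 f/f and 9.04, 8.93 and 8.93 in Sox17 ed/ed, and the genotypes did not overlap. The log2 fold change was 0.69 (0.48 to 0.90), a fold change of 1.62 (1.398 to 1.87; adjusted p = 0.00327), which is short of a fold threshold of 2. On every array the same hybridization measured both subunits, so their changes can be set against each other: Scnn1a minus Scnn1b rose by 3.13 on the log2 scale from Sox17 f/f to Sox17 ed/ed, the genotypes did not overlap, and an exact permutation test over the arrays (two-sided) gave p = 0.1, the smallest that 3 arrays against 3 allow.

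Scnn1g, the gamma subunit, could not be compared. Its probe was well above background on 0 of the 6 arrays, with processed signals of 3.48 to 4.75, where the lowest signal well above background on any array was 13.1. No fold change is given for it. Scnn1g lies next to Scnn1b on chromosome 7 in the GRCm38.p6 gene order, between Usp31 and Scnn1b, so the neighbours differed in whether their probes were above background in these uteri.

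**Figure D2:**
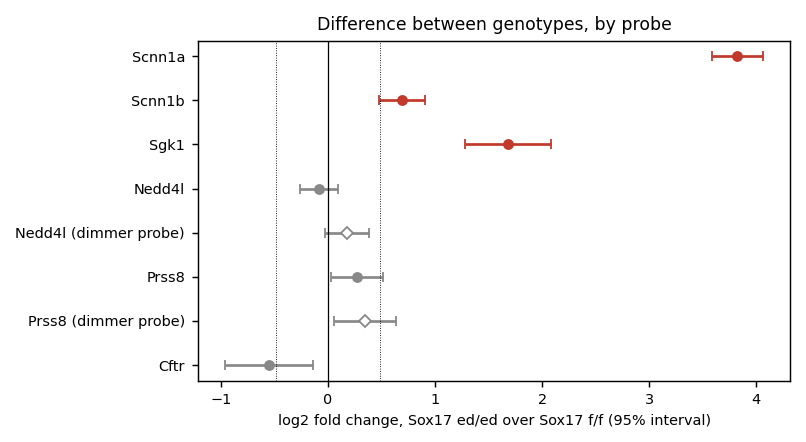
Log2 fold change (horizontal axis, Sox17 ed/ed over Sox17 f/f) of each probe tested, with its 95% limma interval from 3 arrays against 3; filled points stand for the gene, open diamonds are the dimmer probes of Nedd4l and Prss8, red marks genes past the thresholds and dotted lines mark a fold change of 1.4 in either direction. Scnn1a at 3.82, Sgk1 at 1.68 and Scnn1b at 0.69 are called, and the interval of Cftr, -0.96 to -0.14, lies below 0.

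Prss8, whose product prostasin activates ENaC at the cell surface, did not pass the thresholds. The probe with the higher mean signal read 9.40, 9.52 and 9.46 in Sox17 f/f and 9.83, 9.53 and 9.82 in Sox17 ed/ed. Replicate 2 of Sox17 ed/ed lay only 0.01 above the highest Sox17 f/f array. The log2 fold change was 0.27 (95% interval 0.03 to 0.51, limma adjusted p = 0.116). The dimmer probe went the same way, from 8.97 ± 0.03 to 9.31 ± 0.23 (SD, n = 3 each), a log2 fold change of 0.35 (limma adjusted p over all probes = 0.105, short of the thresholds).

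Among the other proteases that cut ENaC and their inhibitors, changes ran both ways. Of 13 listed genes 12 were tested, of which 3 rose, 2 fell and 7 did not pass the thresholds, so 41.7% were called against 12.5% of all genes, with a median log2 fold change of 0.12. The genes that rose are all serine proteases. Tmprss4, a membrane-bound protease known to activate ENaC, went from 9.72, 9.42 and 9.42 to 11.08, 11.01 and 11.10, a fold change of 2.91 (log2 fold change 1.54 ± 0.10 SE, adjusted p = 0.000214). Hpn, which encodes hepsin, another membrane-bound protease, went from 9.15, 8.78 and 8.89 to 10.45, 10.38 and 10.58, a fold change of 2.89 (1.53 ± 0.11, adjusted p = 0.000398). Klk1, tissue kallikrein, had a log2 fold change of 1.43 ± 0.23 (adjusted p = 0.00876) and was well above background on 2 of the 3 Sox17 f/f arrays and all 3 Sox17 ed/ed arrays. With normexp it was 0.54 and still called, and whether its probe also reads other members of the kallikrein family was not tested.

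The genes that fell were an inhibitor and a protease. Serpine2, which encodes protease nexin-1, an inhibitor known to block prostasin, went from 8.72, 9.15 and 8.96 to 7.80, 7.98 and 8.04, a log2 fold change of -1.01 ± 0.13 (SE, adjusted p = 0.00352). Plau, the urokinase gene, had a log2 fold change of -0.60 ± 0.09 (adjusted p = 0.00571), and of -0.43 with normexp, which was not called. Prss22, a tryptase-type protease, was well above background on 3 Sox17 f/f arrays and 1 Sox17 ed/ed array, and its log2 fold change of -1.78 ± 0.49 missed the p threshold (limma adjusted p = 0.0530). The inhibitors Spint2 and Spint1, which act on matriptase and prostasin, had log2 fold changes of 0.35 (adjusted p = 0.0192) and 0.22 (adjusted p = 0.333), short of the thresholds. St14, the matriptase gene, had a log2 fold change of 0.01 (95% interval -0.33 to 0.35) and Furin one of 0.03 (-0.18 to 0.23).

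**Figure D3:**
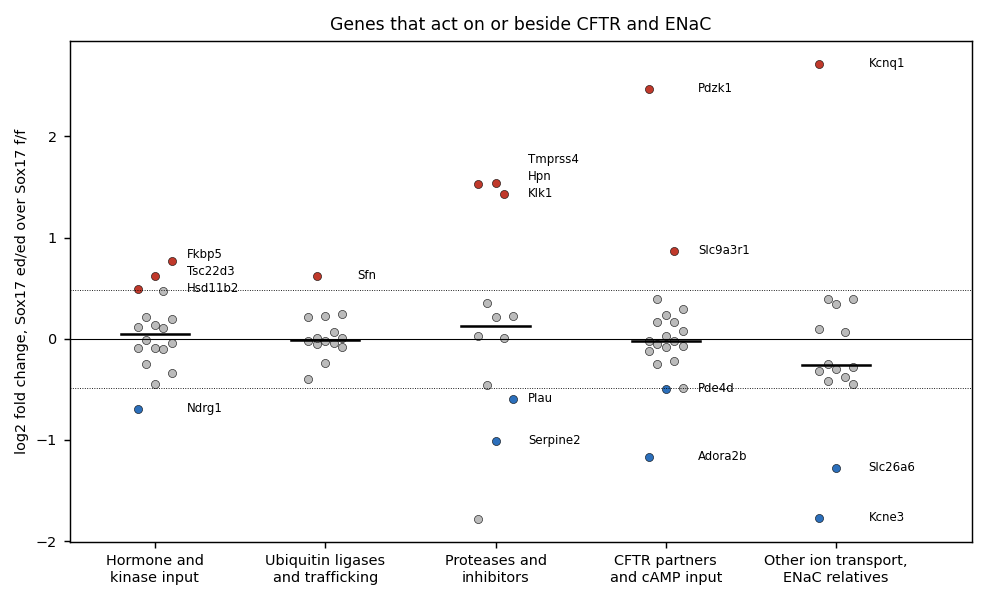
Log2 fold change (vertical axis, Sox17 ed/ed over Sox17 f/f, 3 arrays each) of the tested genes of 5 lists around CFTR and ENaC, 2 of which are not drawn; each point is a gene, red and named where higher and blue and named where lower past the thresholds, grey where not, short black lines are medians over all tested genes of a list and dotted lines mark a fold change of 1.4. The medians lie between -0.26 and 0.12, and Kcnq1 at 2.72 and Pdzk1 at 2.47 are the highest points.

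Cftr, the chloride channel, gave low signals in both genotypes and lower ones in Sox17 ed/ed. Its values were 5.54, 5.27 and 5.55 in Sox17 f/f and 4.63, 5.24 and 4.83 in Sox17 ed/ed, or 38.3 to 53.6 against 24.2 to 35.0 in processed signal. Replicate 2 of each genotype was the nearest to the other genotype, and the gap between them was 0.04 on the log2 scale. The log2 fold change was -0.55 (95% interval -0.96 to -0.14), with Sox17 f/f 1.47-fold above Sox17 ed/ed, which is past the fold threshold but not the p threshold (limma adjusted p = 0.0715). Cftr was called as lower without Sox17 ed/ed replicate 2 (-0.72), and its log2 fold change was -0.21 with normexp, which was not called. Cftr minus Scnn1a within an array changed by -4.38 on the log2 scale from Sox17 f/f to Sox17 ed/ed, with no overlap between genotypes (p = 0.1 by exact two-sided permutation, the lowest the design can give).

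Genes for CFTR's partners and for the cAMP signal that opens it changed in both directions. All 21 listed genes were tested, of which 2 rose, 2 fell and 17 did not pass the thresholds, so that 19% were called against 12.5% of all genes, and the median log2 fold change was -0.02. Of the listed genes for PDZ proteins that bind the tail of CFTR, Pdzk1 and Slc9a3r1 rose, whereas Slc9a3r2, which encodes NHERF2, at 0.17 (adjusted p = 0.213) and Gopc at -0.09 (adjusted p = 0.532) did not pass. Pdzk1 went from 4.78, 4.69 and 4.13 to 6.95, 7.17 and 6.90, a fold change of 5.55 (log2 fold change 2.47 ± 0.19 SE, adjusted p = 0.000408). Its other probe gave 1.35, also past the thresholds, and normexp gave 1.11. Slc9a3r1, which encodes the scaffold NHERF1, went from 8.52, 8.57 and 8.66 to 9.56, 9.20 and 9.62, a fold change of 1.83 (0.87 ± 0.12, adjusted p = 0.00517).

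The genes that fell belong to the control of cAMP. Adora2b, an adenosine receptor that raises cAMP and so activates CFTR, went from 7.96, 7.90 and 8.04 to 6.81, 6.82 and 6.75, a log2 fold change of -1.17 ± 0.07 (SE, adjusted p = 0.000138), and its other probe, at -0.81, was also called. Pde4d, which encodes a phosphodiesterase that breaks cAMP down, had a log2 fold change of -0.50 ± 0.12 (adjusted p = 0.0383). The other Pde4d probe read -0.26 and was not called, and the call was also lost with the replicate block, with a shift by the 75th percentile, with normexp, with no filter on dim probes, with the mean of its probes and without any of the 3 Sox17 f/f arrays or Sox17 ed/ed replicates 1 or 3. Prkaca, a catalytic subunit gene of the kinase that cAMP activates, had a log2 fold change of 0.17 and did not pass.

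Transporters that work beside these channels included the most changed gene of all 5 lists. Of 20 genes listed for other sodium and chloride transport and ENaC relatives 16 were tested, of which 2 rose, 2 fell and 12 did not pass the thresholds. The share called was 25%, against 12.5% of all genes, and the median log2 fold change was -0.26. Kcnq1 encodes a potassium channel that in many epithelia supports chloride secretion together with the KCNE3 subunit. Kcnq1 went from 7.49, 7.40 and 7.36 to 10.22, 10.08 and 10.11, a fold change of 6.59 (log2 fold change 2.72 ± 0.07 SE, adjusted p = 1.08e-05). Kcne3 went the other way, from 8.84, 9.095 and 8.49 to 7.11, 7.04 and 6.96, a log2 fold change of -1.77 ± 0.16 (adjusted p = 0.000762), and its other probe read -1.71.

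For both genes every array of one genotype lay outside the range of the other. Atp1b1, a beta subunit gene of the sodium pump that drives uptake through ENaC, had a log2 fold change of -0.38 (adjusted p = 0.196). Slc26a6, an anion exchanger that works with CFTR in bicarbonate secretion, fell with a log2 fold change of -1.28 ± 0.27 (SE, adjusted p = 0.0220). Another of its probes read -1.50 and was also called, and with the deposited processed values, where spots marked as outliers were kept, Slc26a6 read -0.58 and was not called. Slc12a2, the basolateral cotransporter that loads chloride into secreting cells, had a log2 fold change of -0.45 (adjusted p = 0.0572), and the chloride channel gene Ano1 one of 0.40 (adjusted p = 0.0337), both short of the thresholds. The apical exchangers Slc9a2, Slc9a3 and Slc26a3 and the ENaC relative Asic1 were too dim to test.

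**Figure D4:**
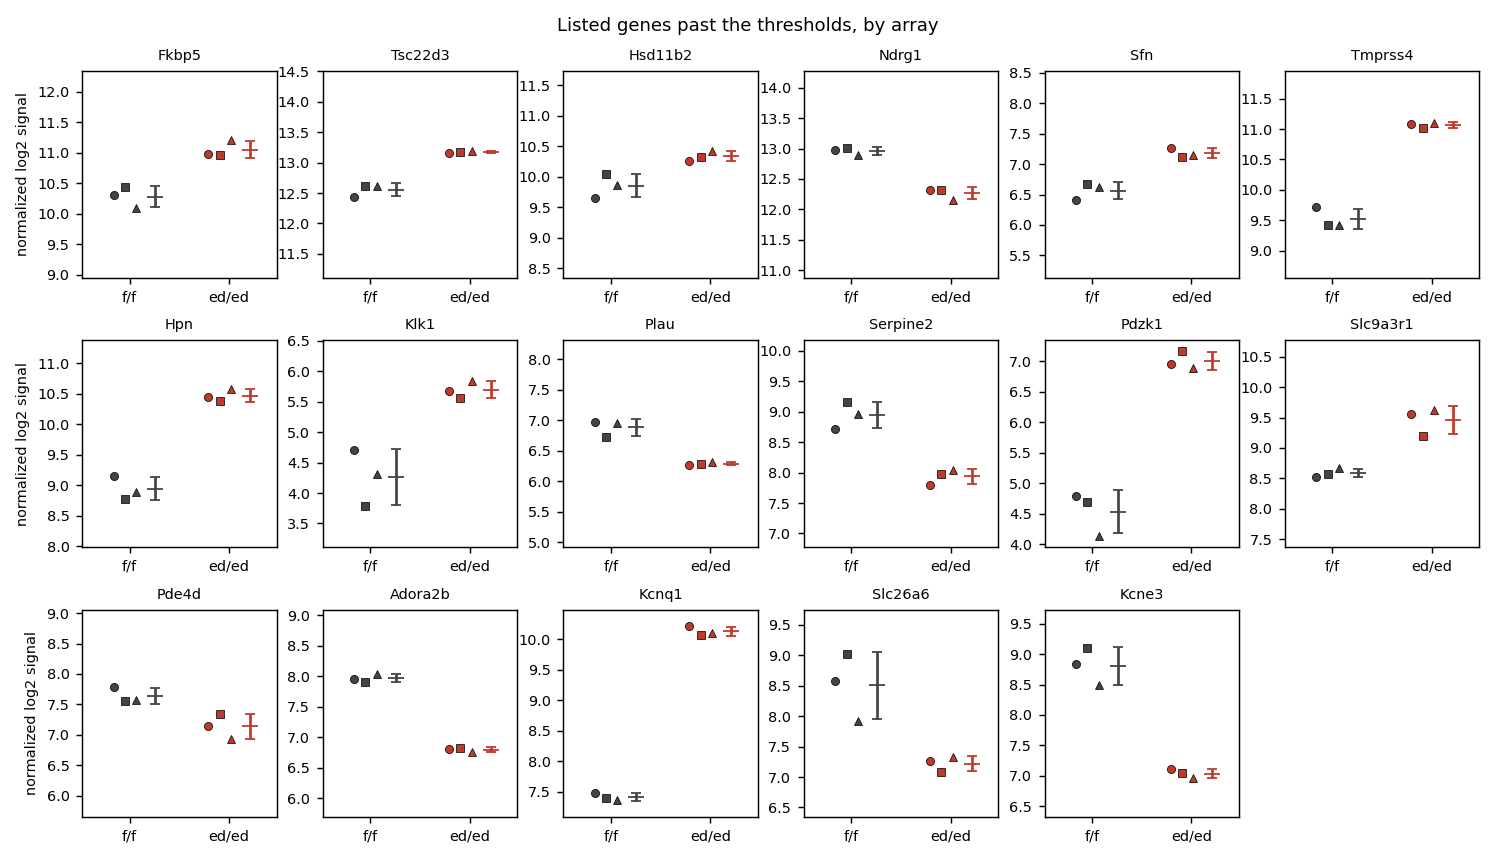
Normalized log2 signal (vertical axis, each panel spanning the same number of log2 units) of 17 of the 18 listed genes past the thresholds on 3 Sox17 f/f (grey) and 3 Sox17 ed/ed (red) arrays; circles, squares and triangles are replicates 1, 2 and 3, and the bar with whiskers is the mean ± SD. Kcnq1 runs from 7.36 to 7.49 in Sox17 f/f and from 10.08 to 10.22 in Sox17 ed/ed, and Kcne3 from 8.49 to 9.095 and from 6.96 to 7.11.

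Over the 5 lists together 88 genes were named and 81 tested, and 11 rose, 7 fell and 63 did not pass the thresholds. The median log2 fold change was 0.01, and 22.2% were called, against 12.5% of all genes. The lists were described by these counts alone, with no test of a list as a whole. Because they were chosen with earlier results of these data known, a share above that of all genes can come from the choice.

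The changes of the genes followed were unequal within the same arrays. Besides Scnn1a with Scnn1b and with Cftr, 3 other pairs were compared by their difference on each array. From Sox17 f/f to Sox17 ed/ed, Sgk1 minus Nedd4l rose by 1.76 on the log2 scale, Scnn1a minus Prss8 by 3.55 and Scnn1a minus Sgk1 by 2.14. In each of the 5 pairs the genotypes did not overlap, and the exact permutation test (two-sided) gave p = 0.1 before and after Benjamini-Hochberg adjustment over the 5 pairs, which is the smallest p that the design allows. Each pair holds Scnn1a or Sgk1, whose own signals lay 3.61 and 1.20 apart between genotypes on the log2 scale. The lack of overlap in the pairs thus follows from the single-gene values above and is not separate evidence. The share over pairs of all genes was not computed. Pairs with Scnn1g could not be formed.

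Genes with the most similar pattern over the 6 arrays were found by centring each gene on its own mean and taking the mean absolute difference in log2 signal. For Scnn1a these were Aldh1a1, a retinaldehyde dehydrogenase gene, at 0.0943, Fcgbp, a mucus protein gene, at 0.0950, and Egfl6 at 0.133, with log2 fold changes of 3.97, 3.96 and 3.56. For Sgk1 they were Macc1 at 0.0651, Akr1c12, an aldo-keto reductase gene, at 0.0914, and Mapk13, a p38 kinase gene, at 0.0983, with log2 fold changes of 1.75, 1.75 and 1.61. For Scnn1b they were Asf1b, a histone chaperone gene, at 0.0277, Plxdc1 at 0.0336 and Rusc1 at 0.0378, with log2 fold changes of 0.71, 0.65 and 0.62. The measure rests on 6 arrays of 2 genotypes, so a like difference between genotypes is most of what it finds.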

How the data were processed

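Total RNA of whole uteri, labelled with cyanine 3, was read on 6 arrays of the Agilent G3 Mouse GE design, in 1 colour. The scanner files were deposited by the authors, and the file headers name Feature Extraction 11.0.1.1 where the submitters' processing notes name version 9.1. The deposited intensity used here is the processed signal, background-subtracted and detrended within an array and not yet normalized across arrays. The deposited table of processed intensity values was within 0.191% of the mean of that signal over the spots of a probe, with array medians of 34.9 to 44.9, so it is on the linear scale and neither centred nor normalized between arrays. Signals close to the background are poorly determined once it is subtracted and the log is taken.

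Log2 intensities were quantile normalized, control spots and 169 to 302 spots per array marked as outliers were left out, and replicate spots of 1 probe were averaged. A probe was kept if 3 or more of the 6 arrays, of either genotype, read it well above background, and each gene was represented by its probe of highest mean signal. Of the 55681 probes, 26582 were matched to genes by RefSeq accession, and 14790 genes were tested, with 57 left out for want of an unmarked spot on some array. The median SD between arrays of 1 genotype was 0.11 on the log2 scale, and the lowest signal well above background was 13.1 to 18.0. With 3 arrays a genotype, their number limits the precision. The array design is annotated on mm9 and the gene table on GRCm38.p6, so coordinates are given for the RefSeq promoter window alone.

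Samples were grouped by genotype from the labels. Genotypes were compared with lmFit and eBayes of limma 3.58.1, run in R 4.3.3, after a test on simulated data, and motifs and plots were made in Python 3.11.15 with pandas 2.3.3 and matplotlib 3.10.9. The study's methods name quantile normalization and the thresholds, but no test, filter or rule for several probes. The text names the 7 genes with all probes, up to 4 called genes of each list with the largest change, the 3 genes most like each called gene, and Sox17; other listed genes were named with their values seen. The 7 genes, the lists and the markers were chosen with earlier results of these data known. Some listed genes are counted but not reported here by name.

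Markers were also listed for stratified squamous epithelium (4 of 6 tested, 1 higher), ovary (1 of 7 tested, 0 called, 4 not above background on any array), adipocyte (2 of 5 tested, 0 called, 3 not above background on any array) and exocrine pancreas (6 of 7 tested, 2 lower). Of the leukocyte markers 4 of 6 were tested, of the neutrophil markers 3 of 4 and of the erythrocyte markers 2 of 4. The alternatives were a shift by the 75th percentile, normexp with an offset of 50, the deposited processed values, no filter or a stricter filter on dim probes, other rules for several probes, a fold threshold of 2, an eBayes intensity trend, a replicate block, an adjusted p under 0.05 and leaving out each array in turn.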

Additional observations from a re-analysis of the deposited data

How the results depend on the processing

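Across the alternatives run and each array left out, Scnn1a, Scnn1b and Sgk1 stayed higher and Prss8 and Cftr kept their sign. With array omission Scnn1a ranged from 3.74 to 3.91, Scnn1b from 0.62 to 0.74, Sgk1 from 1.57 to 1.84, Prss8 from 0.22 to 0.37, Nedd4l from -0.12 to -0.03 and Cftr from -0.72 to -0.42. The genes followed that were called lower numbered 0 to 1 then, since Cftr passed without Sox17 ed/ed replicate 2. Genes called over all tested numbered 1581 to 1938 with an array left out. Nedd4l changed sign with the mean of its probes (0.050) and with the probe of smallest p (0.18), the dimmer of its probes, and was not called either way. With that probe, Sgk1 minus Nedd4l was 1.502. With a fold threshold of 2, Scnn1b (0.69) was not called, 814 genes were called in all (395 higher, 419 lower), and 5 listed genes were higher and 4 lower. With an adjusted p under 0.05, 2804 genes passed (1305 higher, 1499 lower), 15 listed genes as higher and 11 as lower. With normexp the pair differences were 2.89 for Scnn1a minus Scnn1b, -3.68 for Cftr minus Scnn1a, 3.25 for Scnn1a minus Prss8 and 1.81 for Scnn1a minus Sgk1, and the cause was not tested. Normexp was run on the median spot signal, a choice made after seeing the data, in place of the planned mean spot signal. A shift by the 75th percentile moved the median log2 fold change of all genes to -0.0216. Replicate numbers did not pair the samples (correlations of deviations 0.0687, -0.106 and 0.00138); with the replicate block, 1795 genes were called, 3 of those followed were higher and 0 lower, and of the listed genes named only Pde4d was lost. Counted over the genes followed and all alternatives, 98 values kept sign and call, 2 changed sign, 1 lost its call and 1 gained one. Cftr rests on low signals and was not called with all 6 arrays, only without Sox17 ed/ed replicate 2. Scnn1g has no value because its signal is near background.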
